A study of Mus musculus with 4 samples.

Results

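The genes described here are those named for the proteins of the cytosolic ribosome, 86 of the 21506 genes in the tables. They were taken by name, as every gene whose symbol starts with Rpl (large subunit) or Rps (small subunit), with the Rps6k kinases left out. The family was chosen with earlier results of these data known. Each gene is represented by its transcript row with the longest exon length. Of the 86, 46 encode standard proteins of the large subunit and 31 encode standard proteins of the small subunit, and these 77 are called core genes below. Another 8 are paralogs of core genes (Rpl3l, Rpl7l1, Rpl10l, Rpl22l1, Rpl36al, Rpl39l, Rps27l and Rps4y2). Rps19bp1 has the prefix but encodes a protein that binds Rps19 and is not part of the ribosome.

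The study compared 2 libraries of cells infected with a virus made from the XZ vector carrying miR-125b with 2 libraries of cells infected with the XZ control virus. All cells were 32Dclone3, a mouse myeloid line that needs interleukin-3, supplied through WEHI medium beside fetal bovine serum and antibiotics. The infections were stable, and each condition used a separate virus supernatant per infection, so p-values measure only the spread between these infected cultures of a single line. Poly(A)-enriched RNA was sequenced. Levels are in RPKM (reads divided by exon length in kb and by the M reads of the library summed over all transcript rows). This allows levels to be compared between genes of different length.

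Every ribosome contains nearly all of these proteins in equal number, so cells make them in matched amounts, and their mRNAs are among the most abundant of a growing cell. Mammalian genomes also hold many processed pseudogenes of ribosomal protein genes, copies of the mRNA that were written back into the genome, and a short read from the coding sequence can then match several places. The mRNAs share a 5′ terminal oligopyrimidine tract, a C followed by further pyrimidines, through which their translation follows growth signals. A miRNA such as miR-125b lowers mRNAs mainly through sites in the 3′ UTR that pair with its seed, bases 2 to 8, which are in capitals in the mature sequence that all miR-125b comparisons here turn on (RefSeq, GRCm38.p6, chr9:41581940-41581961, plus strand).
miR-125b-5p: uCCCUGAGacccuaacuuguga

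Summed over all rows, the miR-125b libraries held 12.6 and 11.7 M reads and the control libraries 11.2 and 10.4 M. For a transcript of 1 kb, 3 reads were worth between 0.238 and 0.289 RPKM, and intervals given for reads are for counting error alone. As a check of the labels, the Mir125b-1 hairpin held 4 and 4 reads in the miR-125b libraries and 0 and 0 in the control libraries. Of 10 myeloid markers 9 were found in the tables, and 7 of these were at 1 RPKM or more in every library, with summed levels of 476.6 and 322.4 RPKM in miR-125b cells and 248.8 and 338.3 RPKM in control cells. Spi1 was not matched, and Kit and Cd34, markers of immature blood cells, were at or near 0. The 4 epithelial markers were at 0, and the 6 stromal and 6 lymphoid markers summed to between 0.0914 and 0.421 RPKM. The 6 erythroid markers summed to 13.3 and 25.3 RPKM in miR-125b cells and 24.0 and 30.4 RPKM in control cells, with Hbb-b1 at 0. Of the 3 endothelial markers, Pecam1, which myeloid cells also express, made up almost the whole sum of 290.8 and 207.2 RPKM in miR-125b cells and 221.0 and 163.9 RPKM in control cells, and Kdr was at 0. Control replicate 2 had 34.1 on the first principal component, where the other 3 libraries had values from -22.1 to 0.223. In bulk RNA of this kind, fewer cells of a type and less RNA per cell cannot be told apart.

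The core genes were recorded over a wide range of levels in these cells, although their proteins are used in equal number. Mean levels over the 4 libraries ran from 0.183 RPKM (Rpl29) to 1286 RPKM (Rpl8) in the large subunit, and the lowest of the small subunit was 0.267 RPKM (Rps2). The medians of the 2 subunits were close, at 20.9 RPKM for the large subunit and 20.5 RPKM for the small subunit. Of the 77 core genes, 36 had a mean under 10 RPKM. The 8 core genes with the highest levels made up 60.4% and 62.4% of the summed level in miR-125b cells and 61.5% and 59.3% in control cells.

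Among the most abundant mRNAs of the small subunit was Rps15, with 623 and 832 RPKM in miR-125b cells and 612 and 632 RPKM in control cells. Rps14, the gene lost in the 5q- form of myelodysplasia in humans, was at 568 and 650.5 RPKM in miR-125b cells and 642 and 508 RPKM in control cells. Rps26 was at 375 and 349.8 RPKM in miR-125b cells and 346 and 582 RPKM in control cells. The groups overlapped for Rps14, Rps15 and Rps26.

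In the large subunit Rpl8 (chr15:76734501-76736748 in mm9) was highest, with 1031 and 1253 RPKM in miR-125b cells and 1151 and 1709.6 RPKM in control cells. Rpl4 was at 1068 and 1545 RPKM in miR-125b cells and 1395 and 927 RPKM in control cells. Control replicate 2 was thus the highest library for Rpl8 and the lowest for Rpl4, and the groups overlapped for both. Rplp0, Rplp1 and Rplp2 encode the acidic proteins of the ribosomal stalk, which recruits translation factors. Rplp1 was at 616 and 962 RPKM in miR-125b cells and 764 and 1023 RPKM in control cells, and Rplp0 at 591 and 619.7 RPKM in miR-125b cells and 561 and 699 RPKM in control cells. The order of genes by level was nearly the same in every library, with Spearman's rho between 0.949 and 0.987 over the 77 core genes for the 6 pairs of libraries.

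**Figure D1:**
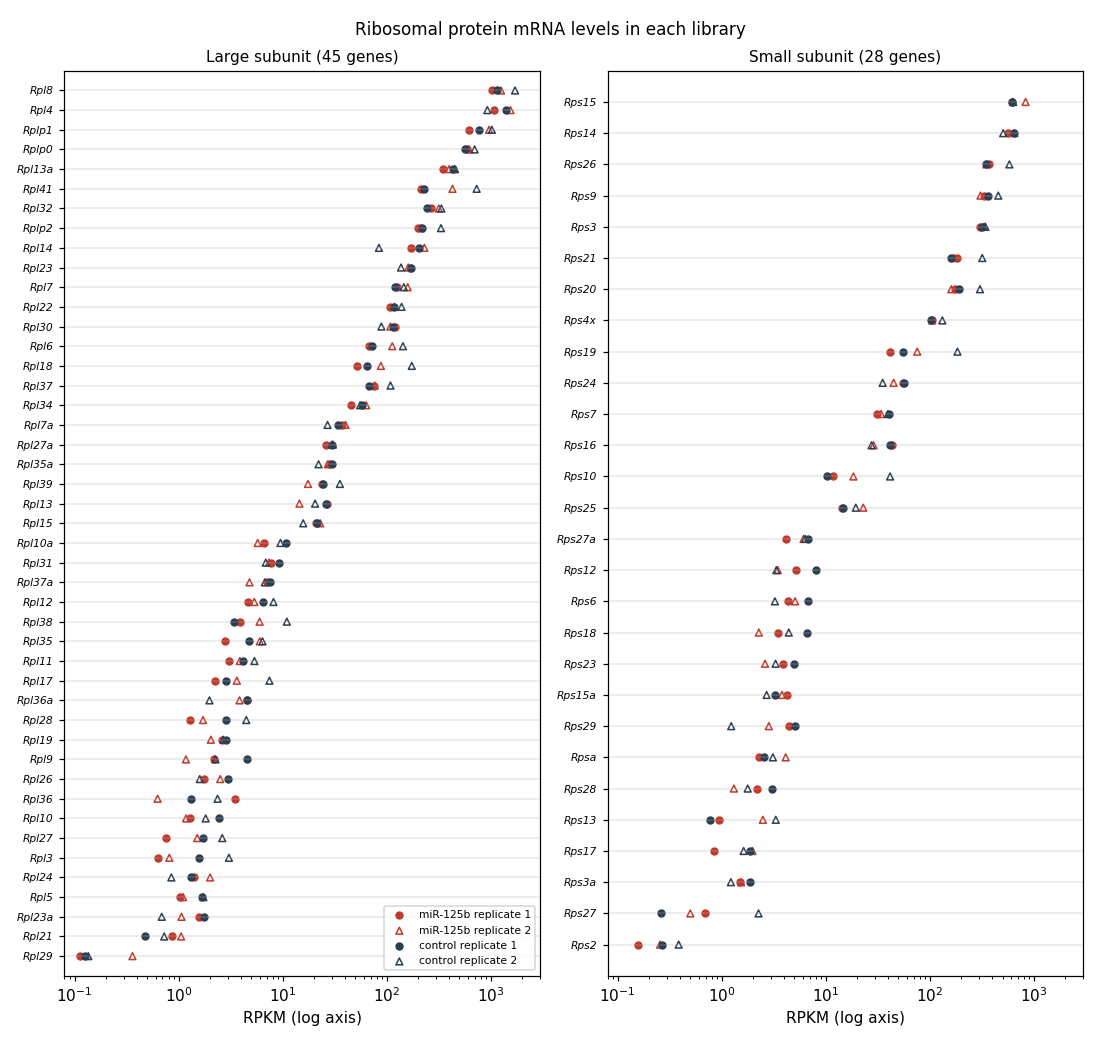
RPKM (log axis) of 45 large-subunit and 28 small-subunit core genes, ordered by mean, with a point for each of the 2 miR-125b libraries (red) and 2 control libraries (dark blue). Levels run from 0.112 RPKM to 1709.6 RPKM, found for Rpl29 and Rpl8, while the 4 points of most genes lie close together on this scale.

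Several core genes were recorded at levels near that of a few reads. Rps2 (chr17:24857008-24858871), which encodes a protein at the mRNA entry of the small subunit, had 2 and 3 reads in the miR-125b libraries and 3 and 4 in the control libraries, the fewest of the small subunit by mean level. The exact Poisson 95% interval of the 4 reads ran from 1.09 to 10.2. Rpl29 (chr9:106331870-106333898) had 1 and 3 reads in miR-125b cells and 1 and 1 in control cells. Rps27 had 3 and 2 reads in miR-125b cells and 1 and 8 in control cells. A difference between the groups was not detectable at this depth for these 3 genes, and none of them passed the filter for testing.

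The genes with low values shared their coding sequence with annotated pseudogenes. For each gene, every window of 30 bases in the coding sequence was looked up in the pseudogene transcripts of GENCODE M21 (GRCm38) on either strand. The following windows, printed because they show the extremes, are in each case the window held by the most pseudogenes among those of the gene that were considered for printing. The first 4 are from genes with many pseudogene copies, and the last is from Rpl8, the highest gene of the large subunit. Positions count from the A of the start codon.
Rpl7a, coding bases 449 to 478, held by 64 pseudogenes: agaaggctcagctggtggtgattgcccatg
Rpl29, coding bases 203 to 232, held by 32 pseudogenes: gcgcagaggccatcaaggccctggtgaagc
Rps2, coding bases 428 to 457, held by 25 pseudogenes: gctccaaggaggttgccactgccatccgag
Rpsa, coding bases 702 to 731, held by 19 pseudogenes: agctcctgagttcactgctgctcagcctga
Rpl8, coding bases 633 to 662, held by 1 pseudogene: tggaggtggtaaccaccagcacattggcaa

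In Rpl8 11.1% of the coding windows occurred in a pseudogene and in Rpl4 40.4%, and these were the large-subunit genes with the highest means. In Rps2 the share was 91.6%, spread over 97 pseudogenes, and in Rpl29 it was 99.3% over 127 pseudogenes. Of the 31 core genes with all their windows in pseudogenes, 25 had a mean under 10 RPKM, and the median was 3.74 RPKM. Of the 25 genes with 90% to under 100%, 11 were under 10 RPKM, and the median was 20.5 RPKM. Of the 21 genes with less than 90%, 0 were under 10 RPKM and 18 were at 100 RPKM or more, with a median of 363 RPKM and a lowest value of 55.4 RPKM (Rpl34). The limits of 90% and 100% were chosen after the values were seen.

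Both subunits had this pattern. Among genes with all windows shared, the median was 4.05 RPKM in the large subunit (21 genes) and 3.54 RPKM in the small subunit (10 genes), and among genes with less than 90% it was 266 RPKM (12 genes) and 379 RPKM (9 genes), in the same order. Across the 77 core genes, the log2 level and the share of windows had a Spearman's rho of -0.70 and a Pearson's r of -0.70. With windows of 50 bases, looked up in all other genes, rho was -0.69. It was -0.53 with the number of pseudogenes, 0.037 with exon length and 0.095 with transcript GC content. These are descriptions across genes of the same 4 libraries, and the genes are not independent replicates.

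The match was not complete. Rpl41, which encodes the shortest of the ribosomal proteins, had all its windows in pseudogenes and stood at 214 and 428 RPKM in miR-125b cells and 230.5 and 731 RPKM in control cells. Its coding sequence had 78 bases against an exon length of 449 bases. Bases outside the coding sequence were not searched for copies in any gene, and their part in the levels was not tested. Rpl21, with 483 coding bases against an exon length of 1854 bases, also had all its windows in pseudogenes and averaged 0.780 RPKM. Rpl7a had windows in 165 pseudogenes, the most of any core gene, and a mean of 34.5 RPKM, with 96.1% of windows shared. Rps20, with 95.2% shared, averaged 208 RPKM. Rps15a had an exon length of 5134 bases, of which 4722 were 3′ UTR in the matched transcript, and a mean of 3.51 RPKM, so most of the length that divides its reads lies outside the coding region.

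The 76 genes of mitochondrial ribosomal proteins, a second set of ribosomal genes, had few such copies. In 74 of them less than 90% of coding windows occurred in a pseudogene, and these had a median of 26.7 RPKM and a range from 2.24 to 181 RPKM. The other 2, Mrpl23 and Mrps36, had all windows shared and averaged 0.214 and 0.309 RPKM, below each of the 74. The sources used here do not say how reads that match several places were counted, and the part of such reads in the low values was not tested. A low value of a core gene is therefore reported as a recorded level and not as a low amount of mRNA.

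**Figure D2:**
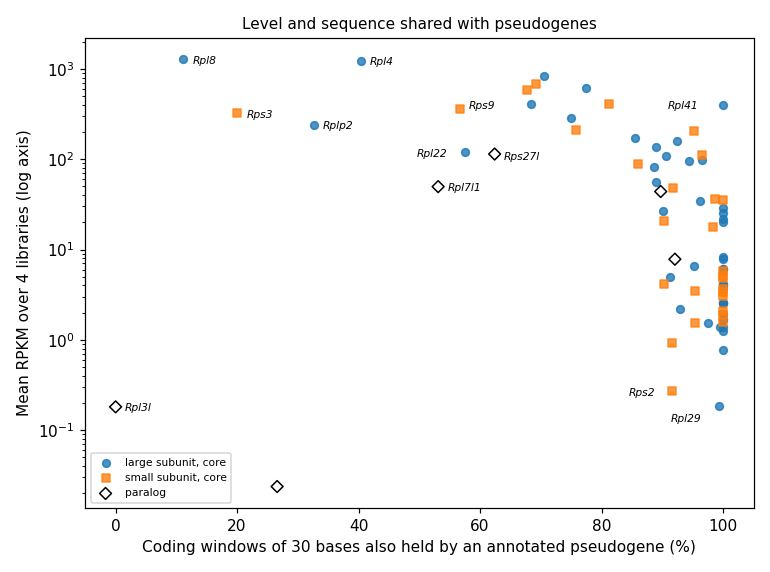
Mean RPKM over the 4 libraries (log axis) against the share of 30-base coding windows that also occur in an annotated pseudogene, for 45 large-subunit core genes (circles), 28 small-subunit core genes (squares) and the paralogs above 0 (diamonds). No core gene with less than 90% shared lies under 10 RPKM, whereas 36 core genes with 90% or more do.

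The paralogs split into a group with substantial levels and a group near 0. Rps27l, a p53-responsive relative of Rps27, was at 88.1 and 144 RPKM in miR-125b cells and 126 and 99.3 RPKM in control cells. Its core relative Rps27 was at 0.697 and 0.500 RPKM in miR-125b cells and 0.261 and 2.26 RPKM in control cells. Rps27l thus exceeded Rps27 in every library, with 62.4% of its coding windows in pseudogenes against 91.6% for Rps27. Rpl36al was at 37.5 and 57.1 RPKM in miR-125b cells and 36.0 and 45.1 RPKM in control cells. Its relative Rpl36a was at 4.56 and 3.85 RPKM in miR-125b cells and 4.57 and 1.98 RPKM in control cells. Here the shares were closer, with 89.7% of the coding windows of Rpl36al and 100% of those of Rpl36a in pseudogenes. For each of these 2 genes 100% of the windows occurred in some other gene. The coding sequences were 76.1% identical between Rps27l and Rps27 and 87.9% identical between Rpl36al and Rpl36a.

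The following stretches are, for each pair, the first 30 bases of the coding sequence that have from 1 to 6 differences. They are from the annotated GENCODE M21 transcripts, with the bases that differ within the pair in capitals. Each stretch has 6 differences in 30 bases, the most that the choice allowed, so the stretches do not measure how far a pair can be told apart.
Rps27l, coding bases 36 to 65: GgaGgaggagaagaAAaaacaTaagaaGaa
Rps27, coding bases 36 to 65: AgaAgaggagaagaGGaaacaCaagaaAaa
Rpl36al, coding bases 1 to 30: atggtCaacgtAccAaaaacccgAAggacT
Rpl36a, coding bases 1 to 30: atggtGaacgtGccTaaaacccgCCggacA

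Rpl7l1, a relative of Rpl7 that acts in ribosome assembly, was at 49.3 and 50.7 RPKM in miR-125b cells and 57.2 and 41.8 RPKM in control cells. Rpl22l1, which can replace Rpl22 in the ribosome, was at 8.97 and 7.33 RPKM in miR-125b cells and 7.47 and 7.48 RPKM in control cells, against a mean of 113 ± 8.19 RPKM in miR-125b cells and 128 ± 16.0 RPKM in control cells for Rpl22 itself (SD, n = 2 each). Rpl10l and Rpl39l, paralogs of the male germ line, had 0 reads in all 4 libraries, which allows up to 3 reads in each (one-sided 95% limit). Rpl3l, a paralog of heart and skeletal muscle, had 1 and 4 reads in miR-125b cells and 1 and 5 in control cells, and Rps4y2 had 1 read in control replicate 1 only. The 4 tested paralogs had log2 fold changes from 0.010 to 0.197, and their groups overlapped.

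Between miR-125b and control cells, no ribosomal protein mRNA passed the test. The 4 with the smallest p were all lower in miR-125b cells and had means under 10 RPKM. Of the 86 genes, 78 reached 1 RPKM in at least 2 libraries and were tested, 44 of the core large subunit, 29 of the core small subunit, 4 paralogs and Rps19bp1. With limma and Benjamini-Hochberg adjustment over all 10310 tested genes, 0 ribosomal protein genes passed, beside 0 of all genes (percent called 0.0). At an unadjusted p under 0.05 there were 967 of all tested genes (9.38%). Of the 78, 4 (5.13%) were lower at that level in miR-125b cells, against 5.21% of all tested genes. In the other direction 0 of 78 were higher, against 4.17% of all genes. With limma-voom on the recovered reads, 0 of all genes passed, with 545 lower and 454 higher at an unadjusted p under 0.05, and 3 of the 78 were lower and 0 higher.

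Rpl28 (chr7:4744567-4746149), a large-subunit protein found in animals and absent from baker's yeast, was at 1.28 and 1.72 RPKM in miR-125b cells and 2.87 and 4.47 RPKM in control cells. These values rested on 8 and 10 reads in miR-125b cells and 16 and 23 in control cells. The groups did not overlap, and the log2 fold change was -0.89 ± 0.25 (SE), with an adjusted p of 0.458 in limma. Rpl10a (chr17:28465416-28467978), a protein of the flexible L1 stalk, was at 6.68 and 5.75 RPKM in miR-125b cells and 10.8 and 9.52 RPKM in control cells. The log2 fold change was -0.63 ± 0.18 (SE), with an adjusted p of 0.464 in limma, and both miR-125b libraries were below both control libraries.

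Rps18 (chr17:34088944-34092586), a protein of the head of the small subunit, was at 3.48 and 2.28 RPKM in miR-125b cells and 6.63 and 4.41 RPKM in control cells. The log2 fold change was -0.75 ± 0.26 (SE), with an adjusted p of 0.488 in limma, and the groups did not overlap. Rpl3 (chr15:79908211-79913836), which lies near the peptidyl transferase centre, was at 0.640 and 0.814 RPKM in miR-125b cells and 1.57 and 3.04 RPKM in control cells. It passed the filter only through its control libraries and so had to differ, and it is 1 of the 4 genes counted as lower above, so its log2 fold change of -0.90 is given as a description only. Rpl12, the fifth by p, was at 4.60 and 5.34 RPKM in miR-125b cells and 6.42 and 8.16 RPKM in control cells, with an unadjusted p of 0.0525. All coding windows of Rpl28, Rpl10a and Rpl12 occurred in pseudogenes, as did 97.5% of those of Rpl3 and 90.2% of those of Rps18.

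Among genes with higher values in miR-125b cells, the 5 with the smallest p were Rps15a, Rpl7a, Rpl24, Rpl14 and Rpl15. Rps15a was at 4.26 and 3.801 RPKM in miR-125b cells and 3.26 and 2.70 RPKM in control cells, and Rpl7a at 36.8 and 40.1 RPKM in miR-125b cells and 34.2 and 27.0 RPKM in control cells. The groups did not overlap for either, and the log2 fold changes were 0.34 ± 0.20 and 0.33 ± 0.20 (SE), with adjusted p-values of 0.610 and 0.623 in limma. Rpl24 was at 1.40 and 2.01 RPKM in miR-125b cells and 1.31 and 0.852 RPKM in control cells. Rpl15 was at 20.9 and 23.0 RPKM in miR-125b cells and 21.5 and 15.8 RPKM in control cells. Rpl14 had the highest log2 fold change, 0.58 ± 0.42 (SE), from 169.9 and 229.8 RPKM in miR-125b cells and 205.1 and 84.1 RPKM in control cells, where control replicate 2 alone was low.

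Groups that did not overlap were counted as a measure that needs no model. Both miR-125b libraries were below both control libraries in 19 of the 78 genes (24.4%), against 20.4% of all tested genes, and above them in 4 (5.13%), against 22.3% of all tested genes. The 19 include Rpl3, which passed the filter only through its control libraries and so had to be among them. Rpl3 also counts among the genes below 0 in the shares that follow. Among the 4 were Rpl7a, Rpl24 and Rps15a. Of the 19, 12 had a mean under 10 RPKM (Rpl3, Rpl5, Rpl9, Rpl10, Rpl10a, Rpl11, Rpl12, Rpl19, Rpl27, Rpl28, Rps18 and Rps27a) and 7 had more, among them Rpl13a, Rpl39, Rplp2, Rps7, Rps9 and Rps20. The 12 were 37.5% of the 32 tested core genes under 10 RPKM, against 20.5% of all tested genes at that level. The 7 were 17.1% of the 41 core genes with 10 RPKM or more, against 20.4% of all genes at that level. The log2 fold change was below 0 in 52 of the 78 (66.7%), against 47.2% of all tested genes. Without miR-125b replicate 1 that share was 53.8%, against 48.4% of all tested genes, and without miR-125b replicate 2 it was 74.0%, against 46.1%. With control replicate 1 left out, 19 of 77 genes were lower and 8 higher at an unadjusted p under 0.05, where all genes had 14% and 15.5%. With control replicate 2 left out, 7 of 76 (9.21%) were lower and 0 higher, where all genes had 5.46% and 6.04%. When miR-125b replicate 2 was left out, the counts were 7 of 77 (9.09%) and 0, where all genes had 2.2% and 0.961%. With the replicate number as a block, 10 of 78 (12.8%) were lower and 0 higher, where all genes had 5.99% and 4.53%, and 0 of the 78 passed the adjustment.

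Control replicate 2 was the highest library for 6 of these 7 better covered genes, all but Rps7. Rps20, a protein of the head of the small subunit, was at 174 and 161 RPKM in miR-125b cells and 191 and 304 RPKM in control cells, with a log2 fold change of -0.52 ± 0.27 (SE). Rpl39, which lines the exit tunnel of the large subunit, was at 23.7 and 17.5 RPKM in miR-125b cells and 24.2 and 35.5 RPKM in control cells, with -0.50 ± 0.25 (SE). Rplp2 was at 202 and 215 RPKM in miR-125b cells and 219 and 332 RPKM in control cells. The distance between the groups was small beside the difference of the control libraries for Rplp2 and Rpl39. Rps9 was at 329.7 and 307 RPKM in miR-125b cells and 359 and 455 RPKM in control cells, and Rpl13a at 351 and 398 RPKM in miR-125b cells and 429 and 452 RPKM in control cells.

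**Figure D3:**
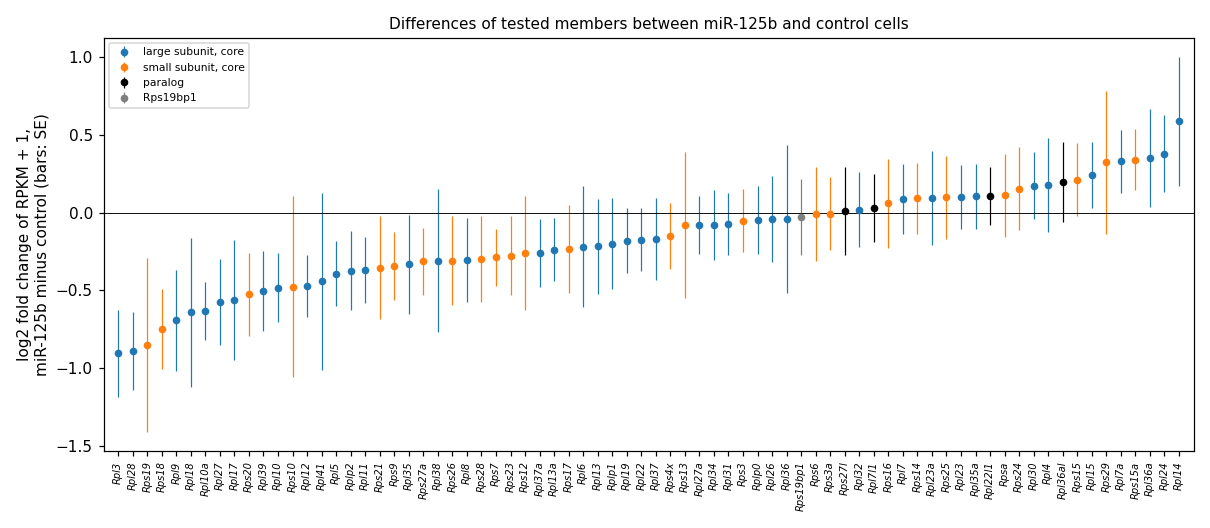
log2 fold change of RPKM + 1, miR-125b minus control, for 74 of the 78 tested genes, with bars for the SE from limma, ordered by value. The points run from -0.90 (Rpl3) to 0.58 (Rpl14), and most lie below 0.

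No gene of either subunit passed the test, and both subunits had medians slightly below 0. The median log2 fold change was -0.19 over 44 core genes of the large subunit and -0.15 over 29 of the small subunit, beside 0.024 over all tested genes and -0.020 over the 74 tested mitochondrial ribosomal protein genes. With a library left out, the large-subunit median was -0.077 (miR-125b replicate 1) or -0.080 (control replicate 2), and the small-subunit median -0.080 (miR-125b replicate 1) or -0.093 (control replicate 1). The difference between the subunits' medians, large minus small, was -0.039, and it had no fixed direction, being 0.093 when control replicate 2 was left out and 0.00252 when miR-125b replicate 1 was. Of the large-subunit genes 31 of 44 were below 0, and of the small-subunit genes 20 of 29. The 32 tested core genes under 10 RPKM include Rpl3, which passed the filter only through its control libraries. Their median was -0.27, with 26 below 0 (81.25%, against 46.7% of all tested genes at that level). For the 41 with 10 RPKM or more it was -0.13, with 25 below 0 (61.0%, against 47.5% of all genes at that level). Of these 41, 0 had an unadjusted p under 0.05 in limma, where all genes at that level had 4.92% lower and 3.49% higher.

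By library, the median deviation of the large-subunit genes from their mean over libraries was -0.16 and -0.00096 (log2) in miR-125b cells and 0.078 and 0.17 in control cells. That of the small-subunit genes was -0.11 and 0.0035 in miR-125b cells and 0.0013 and 0.053 in control cells. MiR-125b replicate 1 was the lowest library and control replicate 2 the highest for both subunits, and miR-125b replicate 2 lay slightly above control replicate 1 for the small subunit, so the groups overlapped there.

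Summed over its core genes, the large subunit reached 5514 and 7093 RPKM in miR-125b cells and 6252 and 7540.3 RPKM in control cells. The small subunit reached 4487 and 4880.0 RPKM in miR-125b cells and 4711 and 6016 RPKM in control cells. The groups overlapped for both sums, which averaged 6304 ± 1117 RPKM in miR-125b cells and 6896 ± 911 RPKM in control cells for the large subunit, and 4683 ± 278 RPKM in miR-125b cells and 5364 ± 923 RPKM in control cells for the small subunit (SD, n = 2 each). The ratio of the large to the small sum was 1.23 and 1.45 in miR-125b cells and 1.33 and 1.25 in control cells. Its mean was 1.34 ± 0.159 in miR-125b cells and 1.29 ± 0.0521 in control cells, and the groups overlapped. With 2 libraries in each group an exact two-sided permutation test cannot give a p below 0.333, so none is reported for these sums. With 1 row kept per gene, all 86 genes together took 1.15% and 1.39% of the reads in miR-125b cells and 1.29% and 1.47% in control cells.

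**Figure D4:**
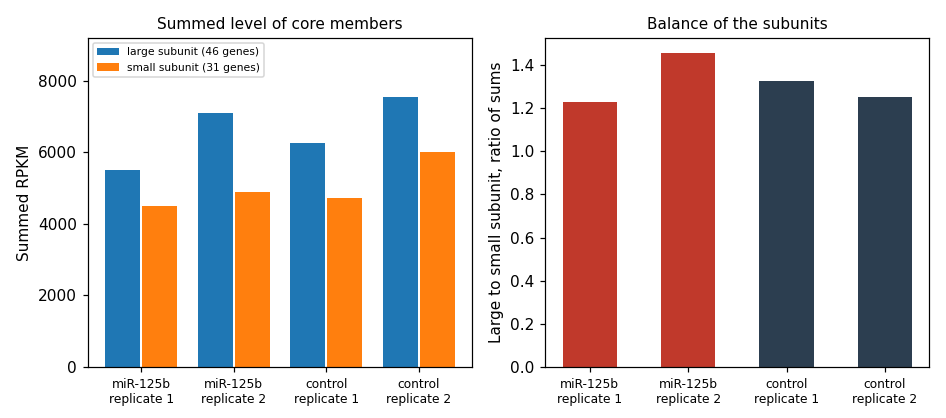
Left, summed RPKM of the 46 large-subunit and 31 small-subunit core genes in each library; right, the ratio of the large to the small sum. Bars start at 0, with the 2 miR-125b libraries left of the 2 control libraries, and the ratio is highest in miR-125b replicate 2 (1.45) and lowest in miR-125b replicate 1 (1.23).

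The spread between libraries of the same group was wide for some of these genes, mainly in the control pair. Between the miR-125b libraries 1 of 73 tested core genes (1.37%) differed by more than 1 on the log2 scale, and between the control libraries 11 did (15.1%), 7 higher in control replicate 2 and 4 lower. Over all tested genes the shares were 1.45% for the miR-125b pair and 3.22% for the control pair, and over mitochondrial ribosomal protein genes 0 of 74 and 2 of 74 (2.70%), in the same order. In the small subunit 6 of 29 genes were beyond 1 in the control pair, and in the large subunit 5 of 44.

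Rps10 (chr17:27767374-27772187), a protein of the small subunit, was at 11.8 and 18.4 RPKM in miR-125b cells and 10.3 and 41.5 RPKM in control cells, a difference of 1.92 within the control pair. Rps19, the gene most often mutated in Diamond-Blackfan anaemia in humans, was at 41.2 and 75.7 RPKM in miR-125b cells and 55.8 and 184 RPKM in control cells. Its log2 fold change of -0.85 had an SE of 0.56, and the groups overlapped. Rpl14, Rps12 and Rps29 went the other way and were lower in control replicate 2 by more than 1, and Rpl17, Rpl18, Rpl38, Rpl41 and Rps13 were higher there. Rpl18 was at 52.2 and 87.9 RPKM in miR-125b cells and 64.5 and 174 RPKM in control cells, and Rps29 at 4.47 and 2.84 RPKM in miR-125b cells and 5.02 and 1.24 RPKM in control cells. The groups overlapped for each of these genes. The only core gene beyond 1 in the miR-125b pair was Rpl36, with 3.50 and 0.628 RPKM from 18 and 3 reads, beside 1.31 and 2.37 RPKM in control cells.

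Transcript GC content moved with these differences. Across the 73 tested core genes, the difference between the control libraries had a Spearman's rho of 0.29 with the GC content of the transcript, and over 10253 tested genes with a known GC content rho was 0.48. The same rho was 0.26 for the miR-125b pair over the 73 genes. The log2 fold change between the groups had a rho with GC content of -0.29 over the 73 genes and -0.28 over all tested genes. Differences between replicates 2 and 1 in both groups went together across the 73 genes, with a rho of 0.47. Pearson's r was 0.46 over the 73 genes and 0.021 over all 10310 tested genes. These are descriptions across genes that share 4 libraries, and the part of GC content in the group difference was not tested beyond a fit with a GC adjustment, which left 52 of 78 genes below 0.

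**Figure D5:**
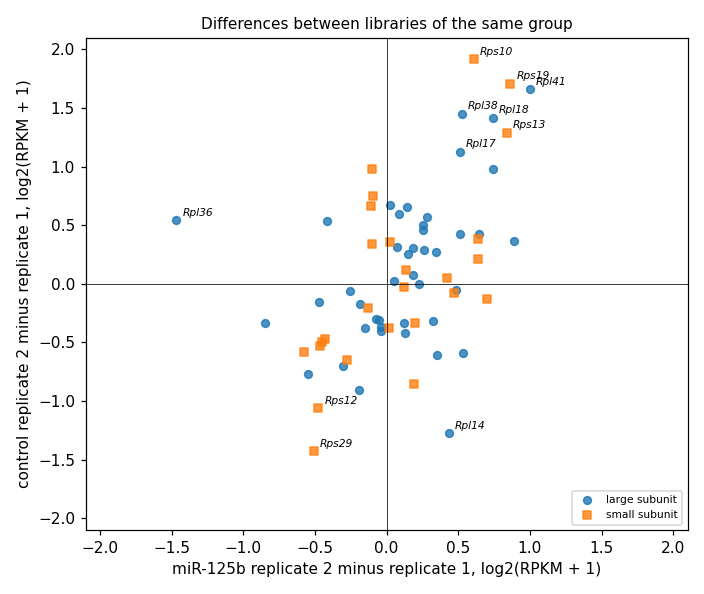
Difference between the 2 libraries of a group on the log2(RPKM + 1) scale for 69 of the 73 tested core genes, miR-125b replicate 2 minus replicate 1 on the horizontal axis and control replicate 2 minus replicate 1 on the vertical axis. The vertical spread, from -1.43 (Rps29) to 1.92 (Rps10), is wider than the horizontal spread apart from Rpl36 at -1.47.

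Several genes are known from human disease or from roles outside the ribosome. Rpl5 and Rpl11 form with 5S rRNA the particle that binds Mdm2 and stabilises p53. Rpl5 was at 1.03 and 1.11 RPKM in miR-125b cells and 1.69 and 1.73 RPKM in control cells, and Rpl11 at 3.07 and 3.87 RPKM in miR-125b cells and 4.20 and 5.35 RPKM in control cells. Both miR-125b libraries were below both control libraries for each gene, with log2 fold changes of -0.39 ± 0.21 and -0.37 ± 0.21 (SE) and adjusted p-values of 0.592 and 0.609 in limma. Rpl35a, another gene of Diamond-Blackfan anaemia, was at 27.9 and 27.2 RPKM in miR-125b cells and 29.6 and 22.1 RPKM in control cells, and Rps24 at 54.7 and 44.9 RPKM in miR-125b cells and 56.0 and 35.2 RPKM in control cells, with overlapping groups.

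Rpsa, which also serves as a laminin receptor, was at 2.30 and 4.12 RPKM in miR-125b cells and 2.54 and 3.11 RPKM in control cells. Rps27a, which is made as a fusion with ubiquitin, was at 4.15 and 6.12 RPKM in miR-125b cells and 6.73 and 6.34 RPKM in control cells. The groups overlapped for Rpsa and did not for Rps27a, whose log2 fold change was -0.31 ± 0.22 (SE). The remaining core genes under 10 RPKM had mean levels from 0.780 RPKM (Rpl21, at 0.855 and 1.06 RPKM in miR-125b cells and 0.480 and 0.728 RPKM in control cells) to 7.78 RPKM (Rpl31). Among them Rpl9 was at 2.19 and 1.18 RPKM in miR-125b cells and 4.55 and 2.26 RPKM in control cells, Rpl27 at 0.756 and 1.51 RPKM in miR-125b cells and 1.70 and 2.63 RPKM in control cells, and Rpl10 at 1.30 and 1.18 RPKM in miR-125b cells and 2.47 and 1.82 RPKM in control cells. The groups did not overlap for Rpl9, Rpl27 and Rpl10, with unadjusted p-values in limma of 0.0727, 0.0782 and 0.0684.

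Other genes of the ribosome and of its production were examined as lists. Fau and Gnb2l1 encode small-subunit proteins under names outside the Rpl and Rps rule. Gnb2l1, the scaffold protein Rack1 of the small subunit, was at 1137 and 1144 RPKM in miR-125b cells and 1114 and 1259.8 RPKM in control cells. Fau, which makes Rps30 fused to a ubiquitin-like protein, was at 3.10 and 3.18 RPKM in miR-125b cells and 3.95 and 7.02 RPKM in control cells. The groups did not overlap for Fau, whose log2 fold change was -0.61 ± 0.26 (SE) with an unadjusted p in limma of 0.0561, and overlapped for Gnb2l1, with -0.055 ± 0.21 (SE).

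Of 122 tested ribosome assembly factors, 3 (2.46%, against 5.21% of all tested genes) were lower at an unadjusted p under 0.05, 0 were higher (against 4.17%) and 0 passed the adjustment in limma, with a median log2 fold change of -0.0042. These were the helicase gene Ddx54 at 20.98 and 18.4 RPKM in miR-125b cells and 31.2 and 27.8 RPKM in control cells, Rrs1 at 26.6 and 23.3 RPKM in miR-125b cells and 38.1 and 32.9 RPKM in control cells, and Nol6 at 19.2 and 17.3 RPKM in miR-125b cells and 27.0 and 23.7 RPKM in control cells. In each of these 3 the groups did not overlap, and with a GC adjustment 0 of the 3 had an unadjusted p under 0.05. The list's median was 0.30 without control replicate 1 and -0.29 without control replicate 2. Rrs1 acts in large-subunit assembly and Nol6 in the small-subunit processome.

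Of 19 tested genes of RNA polymerase I and rRNA synthesis, 0 had an unadjusted p under 0.05 in limma, against 9.38% of all tested genes. The log2 fold change was below 0 in 15 (78.9%, against 47.2% of all tested genes), with a median of -0.15. Taf1c, a subunit of the polymerase I selectivity factor, was at 5.74 and 5.58 RPKM in miR-125b cells and 8.34 and 7.40 RPKM in control cells, and Znrd1, a subunit of the polymerase, at 11.9 and 10.8 RPKM in miR-125b cells and 14.4 and 14.6 RPKM in control cells. Myc, the transcription factor that drives ribosome production, was at 114 and 110.02 RPKM in miR-125b cells and 138 and 133 RPKM in control cells, with a log2 fold change of -0.28 ± 0.19 (SE) and an adjusted p of 0.651 in limma. The groups did not overlap for these 3 genes.

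Of 16 elongation factors and other mRNAs known for a 5′ terminal oligopyrimidine tract, 0 had an unadjusted p under 0.05 in limma, against 9.38% of all tested genes. The log2 fold change was below 0 in 5 (31.25%, against 47.2% of all tested genes), with a median of 0.13. Nap1l1, a histone chaperone, was at 79.9 and 79.9 RPKM in miR-125b cells and 71.1 and 47.8 RPKM in control cells, and Eef1d at 64.1 and 62.5 RPKM in miR-125b cells and 55.7 and 50.3 RPKM in control cells. Tpt1 was at 26.3 and 46.05 RPKM in miR-125b cells and 34.6 and 84.6 RPKM in control cells. The groups did not overlap for Nap1l1 and Eef1d and overlapped for Tpt1.

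Sites for miR-125b were few in these genes. Of the 86 genes, 82 had a 3′ UTR in the matched transcript, with a median length of 81 bases, against 770.0 bases over all genes with one. The matched transcript is the coding transcript of the gene nearest in length to the counted row. It can be another isoform, so the sites of the counted isoform may differ. The seed match CTCAGGG, searched on the transcript strand, occurred in 3 of the 82 (3.66%), Rps3, Rps7 and Rps15a, against 11.8% of all genes with a 3′ UTR, and none of the 3 was followed by the A that makes an 8mer. Rps3 was at 302 and 332 RPKM in miR-125b cells and 315 and 342 RPKM in control cells, Rps7 at 31.2 and 34.1 RPKM in miR-125b cells and 40.5 and 39.6 RPKM in control cells, and Rps15a is given above. Of these 3, Rps7 was lower without overlap, Rps15a higher without overlap, and Rps3 overlapped. A weaker match occurred in 6 further genes. Among these it was TCAGGGA in Rpl7l1 and Rpl22 and TCAGGG alone in Rpl23, Rpl31 and Rps19bp1, and the groups overlapped for all 6.

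Annotated transcription starts were searched for the tract shared by this family, defined as a C followed by at least 4 pyrimidines that begins within 5 bases of the start. Of 76 RefSeq promoters of the family (64 genes), 31 (40.8%) held it, against 23.3% of 73 promoters of mitochondrial ribosomal protein genes and 18.3% of all 32851 promoters. The 3 starts that follow belong to genes named above for their p and are printed because they hold the tract. Rpl10a, Rpl10, Rps15 and Rplp0 were looked up as well and gave no such start, and Rpl3 was not looked up. Only 64 of the 86 genes had a promoter here, and a gene without a promoter also gives no start. The lookup therefore does not show that Rpl10a, Rpl10, Rps15 or Rplp0 lack the tract. The printed starts hold 18 bases before the start and 12 from it (RefSeq, GRCm38.p6), with the tract in capitals. They were read from chr7:4792947-4792976 on the plus strand, chr17:33955654-33955683 on the minus strand and chr2:32961694-32961723 on the plus strand.
Rpl28: gtcccgcctctcgtgtctCTCTTTCCgtct
Rps18: ttatacgtcacttccgctCTCTCTTCCaca
Rpl12: gtgggcggagcaggatccgtCTTTTCggct
A match says only that these letters are in the window, and annotated starts can lie some bases from the start used in a given cell.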

How the data were processed

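RNA sequencing of 4 libraries was used. The authors deposited 1 table per library with an RPKM value for each of 26982 RefSeq rows. Rows are on mm9 (per the submitters' processing notes). No aligner or counter is named in the sources used here, nor how reads matching several places were treated. Each deposited RPKM value times exon length came to whole steps of a single read in 100% of rows (tolerance 0.001 reads), which gave the reads. The longest row per gene was kept, so that totals were 9.48 and 8.82 M reads in miR-125b and 8.42 and 7.73 M in control libraries. Groups were compared with limma 3.58.1 (R 4.3.3, trended prior, 2 residual and 4.63 prior degrees of freedom) on log2(RPKM + 1), a scale that understates changes of low genes, for 10310 genes with at least 1 RPKM in at least 2 libraries. Adjusted p-values follow Benjamini and Hochberg over all of them, with a threshold of 0.05. Of the 86 genes, 71 had at least 1 RPKM in all 4 libraries. The code was tested on simulated data.

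The members and lists were chosen with earlier results of these data known. Named genes were the 4 highest core genes of each subunit, the 5 smallest p in each direction, the paralogs, core genes under 10 RPKM, genes of known roles and 3 genes per list. Genes were joined to GENCODE M21 (all 86 by RefSeq accession), and only names and sequences were taken from that build. Windows came from a transcript paired with the accession. GC content and 3′ UTRs came from the coding transcript of the gene nearest in length to the row, which can be another isoform. For Rps20 the row had an exon length of 502 bases and the 3′ UTR used had 3167 bases. Counting is not stated to use strand, so reads of overlapping or antisense genes may be mixed. Windows with a copy on chromosome 18 were passed over when windows were chosen for printing. The 14 alternatives covered the pseudocount, the filter, scaling, limma-voom, the transcript row, GC adjustment, the replicate block and leaving out each library. Same-numbered libraries come from no shared source that the labels name, so the block was not used as the main model. Some genes are counted in sums, medians and counts but are not reported here by name, and plots of single genes leave them out.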

Additional observations from a re-analysis of the deposited data

How the results depend on the processing

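No ribosomal protein gene and no assembly factor passed the adjusted threshold in any of the 14 alternatives. The median log2 fold change stayed below 0 in each of them, from -0.28 to -0.0773 for the large subunit and from -0.19 to -0.080 for the small subunit with libraries left out in turn, and -0.26 for the small subunit with genes at a mean of 5 RPKM or more. The difference of the medians, large minus small, turned to 0.087 with genes at 5 RPKM or more, to 0.036 with a GC adjustment and to 0.036 with the replicate block and GC adjustment together, and ran from -0.18 to 0.093 with libraries left out (0.00252 without miR-125b replicate 1); the cause was not tested. Of all tested genes, 12 were called with the replicate block and 2 with the block and GC adjustment, and between 0 and 108 with libraries left out, 108 when miR-125b replicate 1 was left out and 24 when its replicate 2 was. The correlation of same-numbered deviations was 0.021 over 10310 genes, and with 2 pairs this does not show that the numbers pair the libraries. The lower ribosomal protein genes at an unadjusted p under 0.05 numbered 10 with the block (12.8%, against 5.99% of all genes), 9 with the block and GC adjustment (11.5% against 6.09%), 5 with a GC adjustment (6.41% against 5.49%) and 1 at 5 RPKM or more (1.89% against 5.19%). With libraries left out they numbered 19 without control replicate 1 (24.7% against 14%), 4 when miR-125b replicate 1 was left out (5.13% against 4.11%) and 7 for each of the other two (9.09% against 2.2% for miR-125b replicate 2, and 9.21% against 5.46% for control replicate 2). Of 63 named and tested genes, 32 kept their direction in every alternative that held them, which for genes whose groups do not overlap is no sign of stability. With a library left out, a group of 1 is assumed to vary like the other group. Depth limits the core genes with few reads: 1 read at 1 kb is worth 0.0792 to 0.0964 RPKM.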

Other observations

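For 8 of the 86 genes the tables held more than 1 transcript row, and the choice of row moved the level of some. Rps27a with an exon length of 726 bases was at 1.96 and 3.64 RPKM in miR-125b cells and 4.54 and 3.19 RPKM in control cells, below the row of 821 bases used above in every library. Rpl38, with rows of 352 and 369 bases that share most reads, also had a row of 285 bases with 2 and 5 reads in miR-125b cells and 3 and 1 in control cells, against 18 and 26 in miR-125b cells and 14 and 42 in control cells for the row of 369 bases. Rpl34 was at 35.0 and 57.1 RPKM in miR-125b cells and 45.5 and 41.8 RPKM in control cells by its row of 403 bases, lower in each library than by its row of 595 bases. The 3 rows of Rps24 differed by a few reads in each library, and those of Rpl19 and Rpl35a did as well. The row of Rpl30 with 575 bases held 873 and 732 reads in miR-125b cells and 745 and 530 in control cells, and that with 519 bases 827 and 695 reads in miR-125b cells and 712 and 483 in control cells.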
